A study of Mus musculus with 2 samples.

Results

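Glycolysis splits glucose into pyruvate in the cytosol, and lactate dehydrogenase then turns pyruvate into lactate. The 10 genes described here encode enzymes of this route: Hk2, Gpi1, Aldoa, Tpi1, Gapdh, Pgk1, Pgam1, Eno1, Pkm and Ldha. They were taken by symbol from the 32285 genes of the tables, and all 10 were present. The members were selected on a measured value, since Aldoa had been seen to be highest in qNSC1 among the clusters from stem cell to neuroblast. The order of Aldoa over clusters is therefore a description, and since the clusters were themselves made from the expression of these cells, so is that of every other member.

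The tables come from single-cell RNA sequencing of EYFP+ cells sorted from the DG of adult mice 21 d after 5 d of TAM. One library was made from NestinCreERT2;VEGFWT/WT;ROSA-STOP-EYFP mice (WT) and 1 from NestinCreERT2;VEGFfloxed;ROSA-STOP-EYFP mice (iKD), each from 5 pooled animals aged 7 to 10 wk at the start. All animals of both groups therefore received TAM and carried the Nestin-driven inducible Cre and the EYFP reporter, and only iKD animals carried floxed VEGF alleles. The WT library held 5543 cells with a median of 8051 unique molecular identifiers (UMIs), and the iKD library 5261 cells with a median of 7080. With 1 library per genotype there was no replicate error and no test between genotypes.

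The deposited cluster names are used below as names only. In the 8 clusters from qNSC1 to NB, 12 of 12 microglia markers had a UMI in more cells than not in each cluster, and the summed level of the list ran from 373.1 in qNSC2 to 485.2 in NSPCs. The list of neural stem cell markers had a UMI in a median of at most 0.685% of cells over the list, in qNSC1, and the summed level was at most 0.0166 for neuroblast markers and 0.206 for border macrophage markers. The cluster named astrocytes carried choroid plexus markers in a median of 79.9% of its cells and astrocyte markers in 1.49%. It also carried microglia markers in a median of 41.4%, at a summed level of 86.6 against 424 in the 8 clusters pooled. The names qNSC1 and qNSC2 follow the tables and their labels, in which qNSC1 has 292 cells and qNSC2 has 502. A cell-count sheet in the supplement of the study exchanges the names of these clusters. Cells with Xist and without Y-linked transcripts made up 51.1% of sex-scored WT cells and 70.8% of iKD cells over the 6 clusters from qNSC1 to IPC2, and IPC2 was mostly male while IPC1 and eNB were mostly female. The libraries shared 9 cell barcodes.

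Transcription of many glycolytic genes is known to be raised by hypoxia-inducible factor, which binds a short core sequence in promoters and enhancers. In microglia, the resident macrophages of the brain, glycolysis is known to rise on activation. Promoter windows from 250 bases before to 50 bases after a transcript start were taken from RefSeq on GRCm38.p6 for all 10 members, of which 5 are printed. Pgk1 and Tpi1 had the largest ratios of qNSC1 to the other clusters, Ldha held the most matches, Aldoa is the gene by which the set was chosen, and Hk2 had a pattern unlike the others. Capitals mark the letters ACGTG and GCGTG, known as the core of the hypoxia response element, on either strand.
Pgk1, chrX:106186850-106187149, plus strand: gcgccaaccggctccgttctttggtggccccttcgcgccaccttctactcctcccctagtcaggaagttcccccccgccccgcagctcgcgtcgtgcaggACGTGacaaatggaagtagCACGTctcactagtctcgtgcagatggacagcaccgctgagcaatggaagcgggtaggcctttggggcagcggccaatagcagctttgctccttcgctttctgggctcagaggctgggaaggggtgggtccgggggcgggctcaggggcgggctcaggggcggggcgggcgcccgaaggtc
Ldha, chr7:46845554-46845853, plus strand: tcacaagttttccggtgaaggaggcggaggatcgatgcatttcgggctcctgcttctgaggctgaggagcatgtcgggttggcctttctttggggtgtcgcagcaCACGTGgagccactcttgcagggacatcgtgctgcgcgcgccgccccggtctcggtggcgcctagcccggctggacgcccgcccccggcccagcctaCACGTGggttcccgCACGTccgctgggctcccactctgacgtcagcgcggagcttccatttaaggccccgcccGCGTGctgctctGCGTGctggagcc
Aldoa, chr7:126799129-126799428, minus strand: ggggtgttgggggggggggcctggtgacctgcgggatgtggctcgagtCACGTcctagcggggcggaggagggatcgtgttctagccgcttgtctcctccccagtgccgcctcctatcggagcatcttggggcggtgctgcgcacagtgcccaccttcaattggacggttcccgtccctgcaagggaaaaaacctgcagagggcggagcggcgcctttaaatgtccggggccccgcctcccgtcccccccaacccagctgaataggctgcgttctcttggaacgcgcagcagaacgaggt
Hk2, chr6:82774405-82774704, minus strand: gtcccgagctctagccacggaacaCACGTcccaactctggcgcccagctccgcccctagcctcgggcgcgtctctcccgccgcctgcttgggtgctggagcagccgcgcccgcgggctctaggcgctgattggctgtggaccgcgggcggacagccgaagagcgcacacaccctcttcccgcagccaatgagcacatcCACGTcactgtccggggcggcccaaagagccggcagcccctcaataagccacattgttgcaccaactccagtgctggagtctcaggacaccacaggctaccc
Tpi1, chr6:124814109-124814408, minus strand: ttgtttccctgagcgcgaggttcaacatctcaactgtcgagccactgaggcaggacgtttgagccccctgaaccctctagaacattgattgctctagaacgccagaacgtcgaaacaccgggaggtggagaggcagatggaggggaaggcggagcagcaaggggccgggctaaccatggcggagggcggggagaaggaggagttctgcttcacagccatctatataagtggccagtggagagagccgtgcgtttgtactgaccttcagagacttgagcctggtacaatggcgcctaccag
These letters were present in 7 of the 10 member windows, or 70%, and in 43.8% of all 32851 windows of the same length. With every RefSeq start of a gene considered, 8 of 10 members held them, beside 46.7% of 27025 genes. Overlapping matches on both strands count separately, and the Ldha window held 7, the most of any member, where the Pgk1 and Hk2 windows held 2 each and the Aldoa window 1. The windows of Pkm, Tpi1 and Gpi1 held none. No GENCODE start lay within 50 bases of the RefSeq start used for Tpi1. A match is only a run of letters, and no binding was measured in these cells.

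Of the 10 members, 9 had their highest level in qNSC1 among the 8 clusters, in the WT library and again in the iKD library. Levels are means over cells of UMIs per 10,000 UMIs of the cell, and each is compared only with the same gene elsewhere. Of the 4178 genes whose level reached 0.5 in qNSC1 or in the mean of the 7 other clusters, 25.7% were highest in qNSC1. The qNSC1 level was above the mean of the other 7 clusters by a log2 ratio of at least 0.5 for the same 9 members, and for 10.4% of all genes. The 9 include Aldoa, by which the set was chosen. They also include Pgk1, at 0.992 in qNSC1 and 0.430 over the other 7, which met the level minimum of 0.5 only through qNSC1. The median ratio was 0.94 over the 10 members and -0.03 over all genes. Intervals in parentheses are 95% intervals for counting error only.

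**Figure D1:**
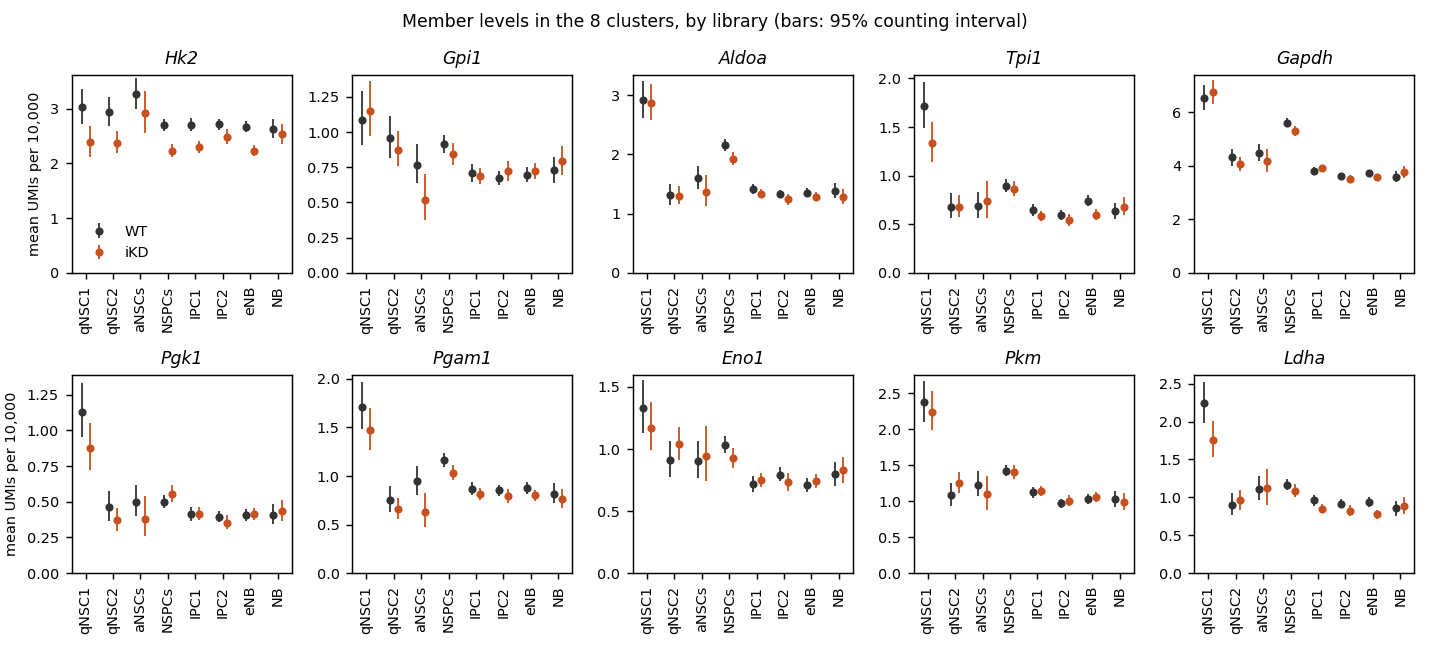
Level of each of the 10 members (mean UMIs per 10,000, from 0) in the 8 clusters, with WT in black and iKD in orange and bars for the exact 95% Poisson interval. In 9 panels the qNSC1 points of both libraries are the highest, while Hk2 is highest in aNSCs, at 3.26 in WT and 2.92 in iKD.

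Hexokinase 2 (Hk2, chr6:82725025-82774454, minus strand) traps glucose in the cell as glucose 6-phosphate. Its level in qNSC1 was 3.03 in WT and 2.38 in iKD, against 3.26 and 2.92 in aNSCs, where it was highest. The ratio of qNSC1 to the 7 other clusters was 0.03 (-0.09 to 0.14), so Hk2 was the member without a difference there beyond counting error. Below aNSCs, none of the 6 steps between neighbouring clusters in the order of Hk2 levels exceeded its interval. Glucose 6-phosphate isomerase (Gpi1, chr7:34201330-34230336, minus strand) makes fructose 6-phosphate. Gpi1 was at 1.09 in WT and 1.15 in iKD qNSC1 cells, and qNSC2 followed with 0.958 and 0.874.

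Aldolase A (Aldoa, chr7:126795234-126800751, minus strand) cleaves fructose 1,6-bisphosphate. Its qNSC1 level of 2.92 in WT and 2.87 in iKD compared with 2.16 and 1.92 in NSPCs, and with 1.24 to 1.60 in the other 6 clusters of both libraries. The ratio to the 7 clusters was 0.98 (0.87 to 1.09). Triosephosphate isomerase (Tpi1, chr6:124810586-124814296, minus strand) interconverts the products of aldolase. Tpi1 was at 1.71 in WT and 1.33 in iKD qNSC1 cells and at 0.896 and 0.865 in NSPCs, and its ratio of 1.13 (0.98 to 1.28) was exceeded only by that of Pgk1.

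Gapdh (chr6:125161715-125166467, minus strand) makes the first NADH of the pathway and is commonly used as a reference gene. Its qNSC1 level was 6.55 in WT and 6.75 in iKD, against 5.62 and 5.32 in NSPCs and 3.51 to 4.49 elsewhere in the 8 clusters, a ratio of 0.69 (0.62 to 0.77) to the 7. Phosphoglycerate kinase (Pgk1, chrX:106187100-106203699, plus strand) makes the first ATP of the payoff phase. Pgk1 reached 1.13 in WT and 0.874 in iKD qNSC1 cells and stayed between 0.354 and 0.554 in every other cluster and library. Its ratio of 1.19 (0.996 to 1.37) was the largest of the 10 members.

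Phosphoglycerate mutase (Pgam1, chr19:41911923-41918660, plus strand) and enolase (Eno1, chr4:150236721-150248879, plus strand) carry the carbon on to phosphoenolpyruvate. Pgam1 was at 1.71 in WT and 1.47 in iKD qNSC1 cells, with NSPCs next at 1.17 and 1.03. Eno1 was at 1.33 in WT and 1.17 in iKD qNSC1 cells and at 1.04 in iKD qNSC2 cells. Its ratio of 0.55 (0.38 to 0.71) and that of Gpi1, 0.56 (0.37 to 0.73), were the smallest of the 9 and were not separated by counting error. Pyruvate kinase (Pkm, chr9:59656368-59679375, plus strand), whose splice forms cannot be told apart in these tables, was at 2.37 in WT and 2.24 in iKD qNSC1 cells, and at 1.42 and 1.40 in NSPCs. Lactate dehydrogenase A (Ldha, chr7:46841475-46855627, plus strand), which favours lactate, was at 2.24 in WT and 1.75 in iKD qNSC1 cells, while its levels in the other clusters ran from 0.774 to 1.17. Coordinates are from GENCODE M21 on GRCm38 and place each gene as a whole.

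NSPCs were the second cluster for 7 of the 9 members and qNSC2 for Eno1 and Gpi1, and for each of the 9 the step from qNSC1 to the second cluster exceeded its interval. Further down, the clusters were mostly not distinguished: of the 70 steps between neighbours over the 10 members, 50 had an interval that included 0. Within sex-scored cells, 9 members were highest in qNSC1 in WT male, iKD female and iKD male cells and 10 in WT female cells, though the smallest cluster held only 9 cells in WT females (IPC2) and 6 in iKD males (aNSCs). Median depth in qNSC1 was 8049.5 UMIs and its share of ribosomal protein UMIs 5.70%, beside 5.65% in NSPCs, 6.27% in qNSC2 and 4.35% in eNB. The part of these values in the order of the members was not tested. The summed level of the dissociation list was 74.9 in qNSC1 and ran from 28.3 (NB) to 107.2 (eNB) in the other 7.

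**Figure D2:**
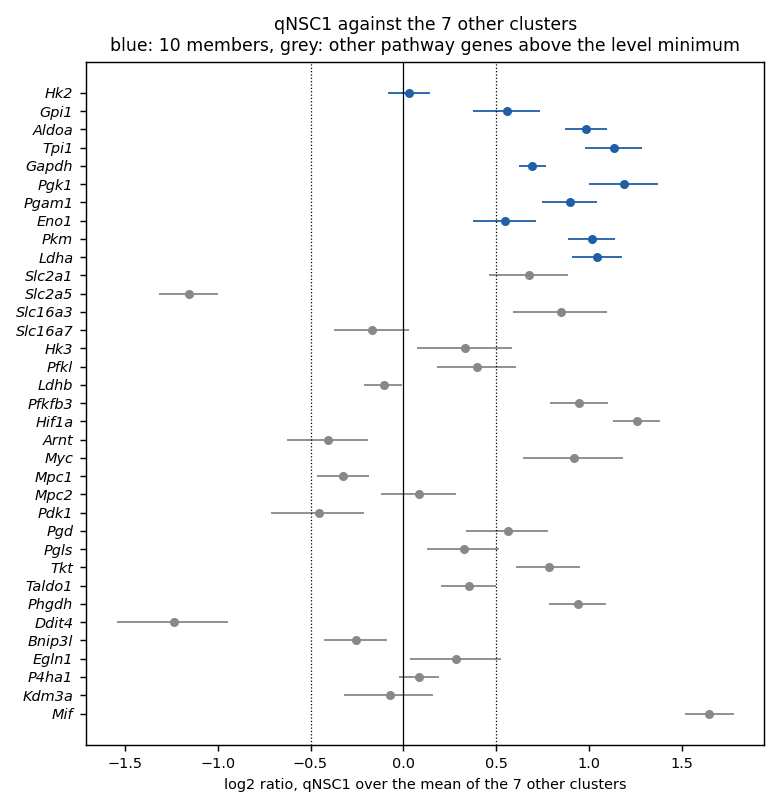
Log2 ratio of the qNSC1 level to the mean of the 7 other clusters, both libraries together, for the 10 members (blue) and the other pathway genes above the level minimum (grey), with bars for the 95% counting interval and dotted lines at 0.5 and -0.5. The members lie from 0.03 (Hk2) to 1.19 (Pgk1), while Mif, at 1.65, and Slc2a5, at -1.16, lie on opposite sides.

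The share of cells with a UMI gave the same picture for 9 members. Cells with at least 1 Pgk1 UMI made up 45.5% of qNSC1 (39.7 to 51.5) and 22.9% to 29.8% of the other 7 clusters. With each cell thinned to 4500 UMIs, which left 285 of 292 qNSC1 cells, the share was 33.3% in qNSC1 and 15.5% to 20.2% elsewhere. For Hk2, thinned shares were 65.6% in qNSC1 and 76.2% in aNSCs, and from 61.8% to 68.5% in the other 6. No cell type in the tables can be taken to lack glycolysis, so the share that free RNA alone would give was not measured. The members were counted together in each cell, and their sum had a mean of 24.1 in WT and 22.0 in iKD qNSC1 cells, beside 17.6 and 16.2 in NSPCs. At equal depth the variance of the sum over its squared mean was 0.348 in qNSC1, within the range of 0.256 (qNSC2) to 0.422 (aNSCs) of the other 7 clusters. The variance over the mean was 3.68 in qNSC1, above the range of 1.65 (qNSC2) to 2.80 (aNSCs) of the other 7. Both measures depend on the mean, which was 10.6 in qNSC1 and 5.67 (eNB) to 7.75 (NSPCs) elsewhere. Whether qNSC1 cells varied more than others was therefore not settled. A sum above 23.1, the 90th percentile over the 8 clusters, was found in 47.8% of WT qNSC1 cells (39.1 to 56.6) and 35.4% of iKD qNSC1 cells (28.0 to 43.4).

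**Figure D3:**
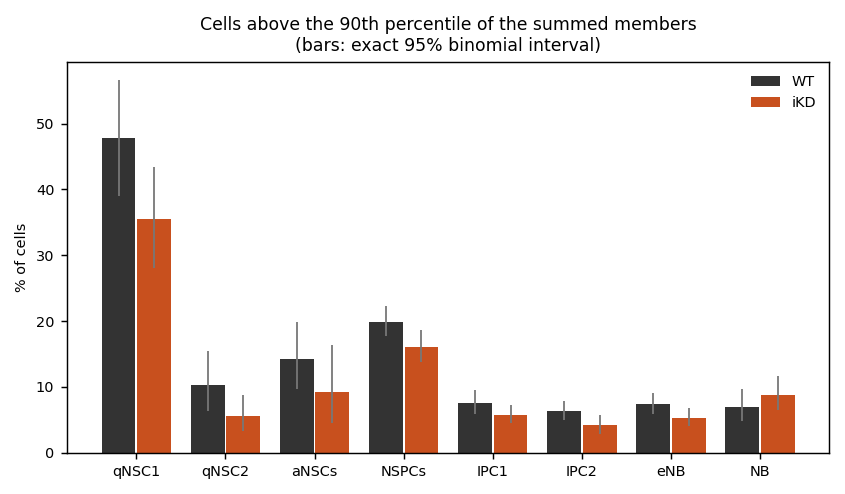
Share of cells (%) in each of the 8 clusters, WT in black and iKD in orange, whose summed members exceeded the 90th percentile of all cells of the 8 clusters (23.1 UMIs per 10,000), with exact 95% binomial intervals. The qNSC1 bars stand at 47.8% and 35.4%, above NSPCs at 19.9% and 16.1%.

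Hk2 also stood apart in its correlations, and those over clusters rest on the same levels as the order given above. Across the 16 values of a gene (8 clusters in 2 libraries), Pearson's r between pairs of the other 9 members ran from 0.63 to 0.97, with a median of 0.88 over 36 pairs. Between Hk2 and each of the 9 it ran from -0.03 to 0.32. Within clusters and libraries, over cells of equal depth, r of Aldoa with the sum of the 8 other members besides Hk2 was 0.11 to 0.51, and that of Hk2 with the sum of the 9 was -0.06 to 0.17. All these points share libraries, depth and clustering, so they are descriptions, and those over single cells rest on sparse counts. Of 4585 genes, the profiles most like that of Aldoa over the 16 values were Bri3, Cct5, the lysosomal Cd68, mt-Nd2 and Abracl, with r from 0.95 to 0.97. Those most like the mean of the 10 members were Abracl, Cycs (cytochrome c), Ssr4, Mif and Cd68, with r from 0.96 to 0.97.

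Genes around the pathway were read from 6 lists. Of 7 genes of sugar uptake and lactate export, 4 reached the level minimum, and the glucose transporter Slc2a1 (0.814 in qNSC1, 0.506 over the 7, ratio 0.68) and the lactate exporter Slc16a3 (0.572 and 0.313, ratio 0.85) were higher in qNSC1. Slc2a5, a fructose transporter known as a microglial marker, was lower, at 1.40 and 3.12. Of 10 regulators, 4 reached the minimum and 3 were higher: Hif1a, the oxygen-regulated subunit of hypoxia-inducible factor, at 2.35 against 0.979 (ratio 1.25, 1.13 to 1.38), Pfkfb3, which makes an activator of phosphofructokinase, at 1.50 against 0.777, and Myc at 0.522 against 0.271. Arnt, the partner of Hif1a, was at 0.747 against 0.993. Hif1a was high in both libraries, at 2.51 in WT and 2.21 in iKD qNSC1 cells. The level minimum applied to the higher of qNSC1 and the mean of the other 7 clusters. Slc16a3 and Myc met it only through qNSC1, so the counts of genes higher there follow in part from the minimum. Slc2a3, at 0.663 in IPC2 and lower in qNSC1 than in most clusters, did not meet it.

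Among 9 genes of branches from glycolysis, 5 reached the minimum, and Phgdh (serine synthesis, ratio 0.94), Tkt (0.78) and Pgd (0.56) of the pentose phosphate pathway were higher in qNSC1. Of 10 genes for entry of pyruvate into mitochondria, 3 reached the minimum and none passed 0.5 in either direction, with Mpc1, a subunit of the pyruvate carrier, at 1.81 against 2.27. Of 20 other isoforms of the pathway steps, 3 reached it (Hk3, Pfkl and Ldhb), and their ratios lay between -0.11 and 0.40. Of 18 other known targets of hypoxia-inducible factor, 9 reached it, 3 were higher and 1, Ddit4, was lower. The 3 were Pfkfb3 and Slc2a1, named above, and Mif, a secreted cytokine, at 2.13 against 0.673, and the median over the 9 was 0.09. A share of 10.4% of all genes passed the same ratio upwards. For a ratio of at most -0.5, as for Ddit4 and Slc2a5, no share over all genes was counted.

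The astrocyte-named cluster, with 4 WT and 130 iKD cells, had 9 members at 4.28 to 21.4 times their level in the 8 clusters pooled, and Hk2 below it. Aldoa was at 17.9 against 1.53 and Pgk1 at 9.75 against 0.447, while Hk2 was at 0.453 against 2.54, a log2 ratio of -2.46 (-2.90 to -2.06). A log2 ratio of at least 1 was reached by 27.4% of all 4922 genes and of at most -1 by 43.7%, and the median over all genes was -0.65. Pgk1 met the level minimum of 0.5 only through the astrocyte-named cluster, and Hk2 only through the 8 clusters. Other isoforms of the same steps were also at unlike levels. Hk1 was at 0.964 there and 0.206 in the 8 clusters, Pfkp at 2.58 and 0.00698, Aldoc at 1.57 and 0.0301 and Ldhb at 31.7 and 3.70. Hk3 went the other way, at 0.0993 and 0.467. Microglia markers were also lower there, at a summed level of 86.6 against 424. How much of the Hk2 and Hk3 in the cluster accompanied them was not tested. Because nearly all cells of the cluster are iKD, no comparison of genotypes was made within it.

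**Figure D4:**
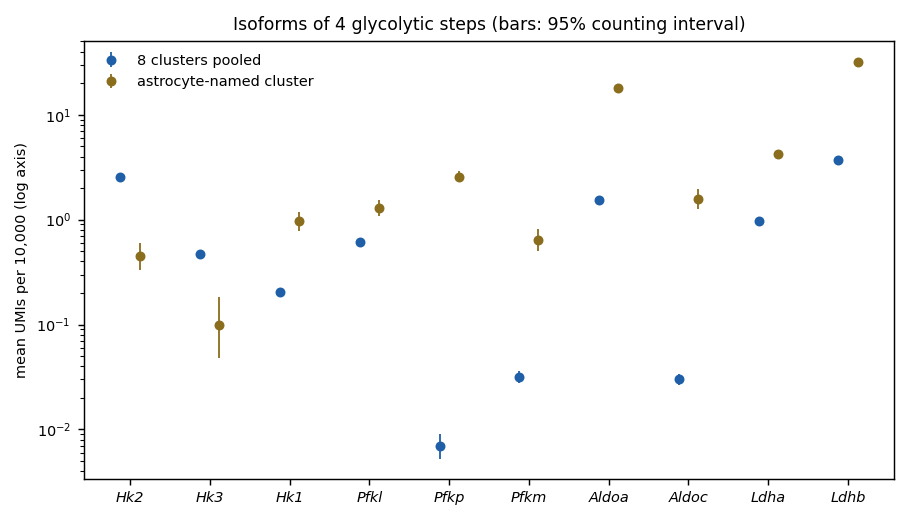
Levels (mean UMIs per 10,000, log axis) of isoforms of 4 steps in the 8 clusters pooled (blue) and in the astrocyte-named cluster (brown), with exact 95% Poisson intervals. Hk2 and Hk3 are lower in the astrocyte-named cluster, at 0.453 and 0.0993, and the other 8 genes are higher there.

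Between genotypes, over the 6 clusters from qNSC1 to IPC2, 9 of the 10 members were lower in iKD and Pkm was not, but the differences were small. Below 0 lay 45.1% of all 3863 genes that reached the level minimum. The median log2 ratio of iKD to WT was -0.09 over the members and 0.01 over all genes. None of the 10 reached -0.25, which 1.86% of genes did. The interval lay below 0 for 6 members and for 16.9% of all genes, and above 0 for 0 members and for 20.2% of all genes. Pgk1 was under the level minimum in both libraries.

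Hk2 had the lowest ratio, with 2.76 in WT and 2.35 in iKD, or -0.23 (-0.28 to -0.18), and 92 of the 3863 genes, 2.38%, lay as low or lower. Hk2 was lower in iKD in each of the 8 clusters, with an interval below 0 in 6 of them. All 8 clusters share the same WT and iKD library, so they do not repeat the comparison. No share of all genes lower in each of the 8 was counted. Hk2 went from 3.03 in WT to 2.38 in iKD in qNSC1, from 2.95 to 2.38 in qNSC2 and from 2.69 to 2.23 in NSPCs. The closest levels were those of NB, at 2.63 in WT and 2.53 in iKD. Pgam1 was at 0.986 in WT and 0.879 in iKD (-0.16), Ldha at 1.06 and 0.968 (-0.13), Aldoa at 1.68 and 1.54 (-0.13), Tpi1 at 0.751 and 0.696 (-0.11) and Gapdh at 4.48 and 4.35 (-0.04), each with an interval below 0. Eno1, Gpi1 and Pgk1 were at -0.06, -0.04 and -0.04 and Pkm at 0.02, and their intervals included 0.

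**Figure D5:**
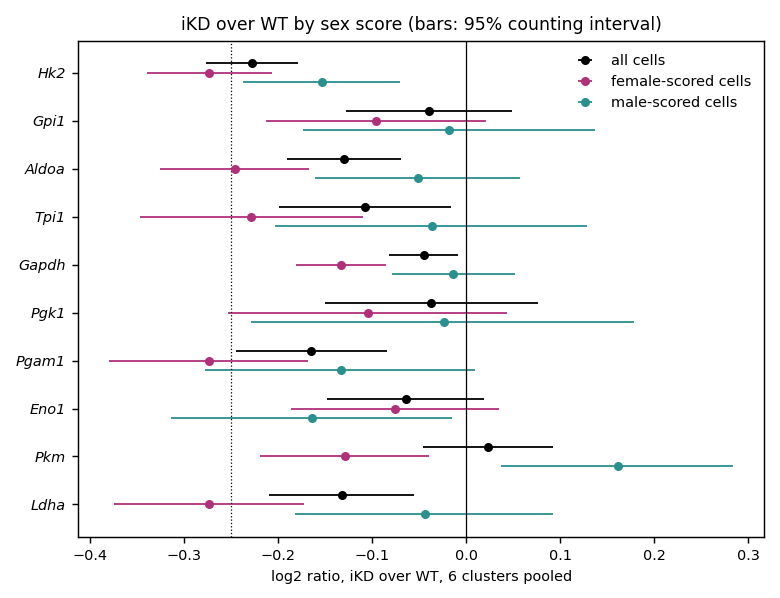
Log2 ratio of iKD to WT over the 6 clusters pooled, for all cells (black), female-scored cells (purple) and male-scored cells (teal), with 95% counting intervals and a dotted line at -0.25. Hk2 lies at -0.23, -0.27 and -0.15, and Pkm at 0.02, -0.13 and 0.16.

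Cluster by cluster, 55 of the 80 ratios of a member were below 0, 16 with an interval below 0 and 0 with one above. Over all genes, 9.71% of 32015 pairs of gene and cluster had an interval below 0 and 10.1% had one above. These pairs all reached the level minimum. The 80 include Pgk1 in qNSC2, IPC1, IPC2, eNB and NB, where it did not. The count below 0 was 8 in qNSC1 (48.2% of all genes), 7 in qNSC2 (49.7%), 7 in aNSCs (46.8%) and 9 in NSPCs (48.2%). It was 6 in IPC1 (48%), 8 in IPC2 (46.8%), 6 in eNB (47.6%) and 4 in NB (51.8%). Sex makeup differed between genotypes within clusters too. Female-scored cells were 21.5% of sex-scored aNSCs in WT and 94.1% in iKD, and 0.836% and 15.8% of IPC2. The ratios in aNSCs thus mostly set male WT cells against female iKD cells. In qNSC1, Ldha (-0.35), Tpi1 (-0.36), Pgk1 (-0.37) and Hk2 (-0.34) were the lowest, with an interval below 0 for Ldha, Tpi1 and Hk2 and one that just included 0 for Pgk1, while Gapdh was at 0.04 and Aldoa at -0.02. By sex, Ldha in qNSC1 was at -0.57 (-0.93 to -0.23) in female-scored and 0.13 (-0.34 to 0.59) in male-scored cells. Pgam1 was at -0.62 in female-scored cells, with an interval below 0, and at 0.40 (-0.12 to 0.94) in male-scored cells. Hk2 was at -0.35 (-0.64 to -0.06) and -0.47 (-0.90 to -0.05), and each library had 41 male-scored qNSC1 cells. Gapdh was at -0.10 (-0.28 to 0.08) in female-scored and 0.37 (0.11 to 0.62) in male-scored cells. It was the 1 member with an interval above 0 in either sex. An interval below 0 was found for 5 members in female-scored and 1 in male-scored qNSC1 cells. No share over all genes was counted for these. Of the other pathway genes above the level minimum, only Ddit4, an inhibitor of mTORC1 that stress induces, passed -0.25, at 1.51 in WT and 0.768 in iKD. Over all genes, 1.86% passed -0.25. None of the pathway genes passed 0.25, for which no share over all genes was counted. Ddit4 was highest in IPC2 in WT and in NSPCs in iKD, and IPC2 held 1170 WT and 793 iKD cells. The part of cluster makeup in its ratio was not tested.

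The ratios were also taken within each sex score and after subtraction of an amount accompanying Ttr. Among female-scored cells, all 10 members and 44.1% of all genes had a ratio below 0, and the median was -0.18 over the members and 0.02 over all genes. Among male-scored cells, 9 members and 45.9% of genes had one, with medians of -0.04 and 0.01. Pgk1, among those 9, was under the level minimum in male-scored cells. When the ratios of female-scored cells were averaged over the 6 clusters with equal weight, 6 members and 43.9% of genes were below 0 and the median was -0.06 over the members and 0.02 over all genes, with 9 WT female cells in IPC2. Ttr, a choroid plexus transcript, was at 0.137 in WT and 10.2 in iKD cells of the 6 clusters. If each member accompanied Ttr as it does in the astrocyte-named iKD cells, that amount would be 21.2% of the iKD level of Pgk1, 11.4% of that of Aldoa and 0.182% of that of Hk2. With the accompanying amount of each gene subtracted, 10 members and 52.5% of genes were below 0, and the median was -0.21 over the members and -0.0046 over all genes. Because Ttr was higher in iKD, the subtraction lowers the ratio of every member by construction. For Aldoa it takes 11.4% of the iKD level and 0.141% of the WT level. Genotype, library and pool of animals cannot be told apart.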

How the data were processed

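Cells of both genotypes were sequenced on the 10x platform. The authors aligned and deduplicated the reads with CellRanger 7.0.1, and filtered, normalized, integrated and clustered the cells with Seurat 4.1.1. The submitters' processing notes also name HISAT2 2.0.6 and CASAVA 1.8.2 and give GRCh38, a human build, for these mouse libraries, and the paper's text names no build. The authors deposited natural log values, computed as the log of 1 plus counts per 10000 UMIs of the cell, 1 table for each of 12 clusters. Their stated minimum of 2000 detected genes is not met by 496 of the 10804 deposited cells.

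UMIs were recovered from the natural log values, and 100% of 32261786 values above 0 came out whole (within 0.001). All deposited cells were used and no doublet caller was run. Xist and Y-linked UMIs occurred together in 1.41% of cells. A second Aldoa entry, at the adjacent locus, was not added to Aldoa. The level is the mean over cells of counts per 10000 UMIs, and ratios are log2 with a pseudocount of 0.01. Genes entered the counts over all genes where the level of the higher group reached 0.5. The ratio of qNSC1 was taken to the mean of the levels of the 7 other clusters. Poisson and binomial intervals are exact, at 95%, and ratios carry the exact binomial bounds of their summed UMIs, centred on that ratio. All cover counting error alone. No test was made, since cells cannot stand as replicates for the 1 library per genotype.

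The members, the 6 pathway lists, the marker lists and the ratio limits (0.5 between clusters, 0.25 between genotypes, 1 for the astrocyte-named cluster) were chosen with earlier results of these data known. The genes named are the members, the pathway genes above the minimum and the 5 genes most like Aldoa and most like the mean of the members. The alternatives were CPM from summed UMIs, other pseudocounts and denominators, median-ratio scaling, cells of 1 sex or 1 library, 8 clusters or equal weight for clusters, and fewer, deeper or thinned cells (to 4500 UMIs). The steps were tested on simulated cells with Poisson counts and the same mean of a gene for all cells of a group. Real cells varied more, with a variance over mean of the summed members of 1.65 (qNSC2) to 3.68 (qNSC1) at equal depth. The simulation therefore did not test the intervals for such spread. Python 3.11.15, numpy 2.4.6, scipy 1.17.1, pandas 2.3.3 and matplotlib 3.10.9 were used.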

Additional observations from a re-analysis of the deposited data

Results flagged for a closer look

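Pkm was the member whose ratio of iKD to WT over the 6 clusters had opposite signs in the sexes, each with an interval beyond 0. It was -0.13 (-0.22 to -0.04) in female-scored cells, with levels of 1.38 in WT and 1.26 in iKD. It was 0.16 (0.04 to 0.28) in male-scored cells, with levels of 1.07 in WT and 1.20 in iKD. The difference between the sexes was not tested, since each sex within a genotype comes from 1 library. The sexes also fall into different clusters. Within each of the 6 clusters, the Pkm interval included 0 in both sexes. The female-scored ratio was above 0 in IPC1 (0.03) and IPC2 (0.11), and the male-scored ratio was below 0 in IPC1 (-0.39). Cluster makeup also differed between genotypes within a sex. Among female-scored cells, NSPCs were 829 of 1765 in WT and 656 of 2230 in iKD.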

How the results depend on the processing

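Under every alternative run, 9 members stayed highest in qNSC1. The share of cells with a UMI was recomputed for at least 2 UMIs and for thinned cells, and 9 members had their highest share there under both. The median ratio of qNSC1 to the 7 clusters, 0.94, became 0.53 with a pseudocount of 1, 0.98 with median-ratio scaling and with thinned cells, 0.87 in female-scored and 1.07 in male-scored cells, and 0.86 after leaving out the 5% of cells richest in detected genes. The count of members lower in iKD ran from 6 to 10. The median ratio of iKD to WT, -0.09, became -0.041 with a pseudocount of 1, -0.040 in male-scored cells, -0.18 in female-scored cells and -0.11 as the mean of the ratios within clusters. Of the alternatives chosen after seeing the data, subtraction of the amount accompanying Ttr gave -0.21, and female-scored cells with equal weight for clusters gave -0.060. A larger pseudocount shrinks ratios of low levels by construction. The subtraction lowers the ratio of every member by construction, because Ttr was higher in iKD. For the other alternatives the cause was not tested. Single members kept the sign of their ratio in 127 of 130 recomputed values for qNSC1, where the 3 exceptions were Hk2, and in 150 of 160 for the genotypes. The Hk2 ratio of iKD to WT ran from -0.27 to -0.15 over 16 alternatives. No paired analysis was possible because each genotype has 1 library, and for the same reason no replicate could be left out.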

Other observations

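Hk2 also differed from most other members in the clusters that stood apart in RNA makeup. IN2, with 288 cells, a median of 3102.5 UMIs, 0.994% ribosomal protein UMIs and 3.34% Malat1, had Gapdh at 0.623 against 4.19 in the 8 clusters pooled, Ldha at 0.227 against 0.969 and Aldoa at 0.367 against 1.53. Hk2 was at 2.46 against 2.54, a log2 ratio of -0.05 (-0.23 to 0.14). Gpi1, at 0.640 against 0.764, was the other member whose interval included 0 (-0.63 to 0.10). In the undefined cluster, with 40 cells, 12.6% ribosomal protein UMIs and 0.0583% Malat1, Gapdh was at 14.2 and Pkm at 4.86 against 1.17, while Hk2 was at 1.31. Across the 12 clusters, Pearson's r of the log2 level with the share of Malat1 was 0.81 for Hk2 and -0.89 to -0.79 for the other 9 members. Over the 8 clusters alone it was 0.11 for Hk2 and -0.63 to -0.04 for the other 9. With the share of ribosomal protein UMIs, r was -0.57 for Hk2 and 0.64 to 0.82 for the other 9 across the 12 clusters, and 0.15 and 0.28 to 0.85 over the 8. Hk2 is the longest of the 10 genes, with 49430 bp from first to last base, beside 3711 bp (Tpi1) to 29007 bp (Gpi1). These are descriptions over clusters of unequal size and depth, and whether reads in introns were counted is not given in the sources used here.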
